A study of Mus musculus with 58 samples.

Results

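Of the 58 sorted adipose stem cell libraries in the series, 23 contained transcripts of Tcf21 and 35 did not. The classes were chosen by the Tcf21 level itself, so Tcf21 is described here and given no test. A library was called Tcf21-containing when its Tcf21 count, expressed per 1000000 counts of that library (CPM), reached at least 5 CPM, and Tcf21-free otherwise. For every other gene the comparison asks how its level varied with the Tcf21 class over these libraries. The class is a measured property and not a condition that the labels assign.

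Each library came from adipose stem cells (ASC) that the labels place in inguinal white adipose tissue (iWAT), the subcutaneous fat pad of the groin, of C57BL6/J mice. Cells were sorted as CD45- and CD31- to remove leukocytes and endothelium, and as CD34+ to keep stroma. DPP4- cells were collected as ASC1 and DPP4+ cells as ASC2. The mice were control males, castrated males, control females or ovariectomized females, operated on at 4 weeks of age, taken at 10 weeks of age and fasted before collection. ASC1 gave 7 control male, 8 castrated male, 8 control female and 3 ovariectomized female libraries, and ASC2 gave 8 libraries of each. Smart-seq3 libraries were sequenced to between 106566 and 1421547 counts, with a median of 682424. Depth was similar in the classes, with medians of 753782 counts in Tcf21-containing and 633802 in Tcf21-free libraries. The labels do not say whether a library holds the cells of 1 mouse or of several.

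Fat depots differ in developmental origin, and their stroma keeps a record of it in transcription factor genes. Tcf21, a basic helix-loop-helix factor, and Wt1, a zinc-finger factor of mesothelium, are known from visceral stroma. Tbx15, a T-box factor, and Hoxc10, a posterior homeobox factor, are known from subcutaneous stroma. Visceral depots are covered by mesothelium, an epithelium-like sheet, while the inguinal depot is not. No library labelled as a visceral depot was analysed here, and the tissue of origin of any library was not tested.

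Several features of the libraries bear on what follows. Reads from Xist, the RNA of the inactive X chromosome, and from 4 Y-linked genes went against the labelled sex, or were both present, in 27 of the 58 libraries, 11 of them Tcf21-containing and 16 Tcf21-free. Xist was counted as present from 15 CPM and the summed Y-linked genes from 10 CPM, so lower levels can occur in libraries counted as without them. All castrated male ASC1 libraries, against their label, and all ovariectomized female libraries passed the limit for Xist alone. All castrated male ASC2 libraries passed that for the Y-linked genes alone. In the control groups the transcripts differed between the classes. In control female ASC2 the 2 Tcf21-containing libraries passed the limit for Xist alone. Of the Tcf21-free ones there, 2 passed that for the Y-linked genes alone and 4 passed both. All 10 libraries of the series that passed both limits were Tcf21-free. Summed levels of 6 epithelial markers reached 100 CPM in 9 libraries, 1 of them Tcf21-containing, and 8 libraries held fewer than 300000 counts, 3 of them Tcf21-containing. The 9 included all 4 Tcf21-free ovariectomized female ASC2 libraries and both Tcf21-free control female ASC1 libraries. Without the 9, neither of these groups holds both classes. The 3 ovariectomized female ASC1 libraries, all Tcf21-free, stood apart from the other 32 Tcf21-free libraries in many genes and are described at the end. Where leaving out the libraries that go against their sex label, or those high in epithelial markers, ended the call of a gene described here, this is said beside it. Without the former, only control female ASC1, castrated male ASC2 and ovariectomized female ASC2 hold both classes. No castrated male ASC1 library is left, and within ASC1 the class difference rests on the Tcf21-containing library A4, with 139825 counts. A call lost in either subset therefore cannot be told apart from a loss of libraries to compare.

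Tcf21 reads were nearly all in 1 class. The 23 Tcf21-containing libraries held 583 Tcf21 reads and the 35 Tcf21-free libraries held 1, at 2 to 70 reads per library in the former. Unscaled Tcf21 CPM in Tcf21-containing libraries ran from 8.69 to 80.8 with a median of 30.2. Just inside the threshold lay the castrated male ASC2 library I1, with 8 reads and 8.69 CPM, and next above it the control male ASC1 library C2, with 13.3 CPM. Just outside lay the control female ASC2 library E3, with 1 read and 1.35 CPM. The other 34 Tcf21-free libraries had no Tcf21 read. At their depths a count of 0 allows up to between 2.11 and 28.15 CPM, with a median of 4.782 CPM, and the limit exceeded 5 CPM in 15 of the 34. These limits cover counting error only.

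Both classes occurred in 6 of the 8 title groups. Tcf21-containing libraries made up 15 of 26 ASC1 libraries and 8 of 32 ASC2 libraries. By group they numbered 6 of 8 in castrated male ASC1, 2 of 8 in castrated male ASC2, 6 of 8 in control female ASC1, 2 of 8 in control female ASC2, 3 of 7 in control male ASC1 and 4 of 8 in ovariectomized female ASC2. None was found among 8 control male ASC2 or 3 ovariectomized female ASC1 libraries. Each library title ends in a letter and a digit, and the classes followed the letters in short runs. In castrated male ASC1, for example, letters K to P were Tcf21-containing, and in castrated male ASC2 letters I and J were. Of 26 letters that had both an ASC1 and an ASC2 library in the same treatment, 16 differed in class, including 8 of 8 letters in castrated males. The labels do not say what the letters stand for.

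Levels from here on are CPM scaled by the trimmed mean of M-values (TMM), unless called unscaled. Among Tcf21-containing libraries, the 3 control male ASC1 libraries had 13.3, 16.92 and 17.83 CPM of Tcf21. In castrated male ASC1 it ranged from 27.95 to 79.08 CPM with a median of 55.77, and in ovariectomized female ASC2 from 30.39 to 50.87 with a median of 41.01. The castrated male ASC1 range lay above all 3 control male ASC1 values. These 6 castrated male libraries passed the limit for Xist alone, against their label. The 3 control male libraries passed that for the Y-linked genes alone, and the part of treatment in this difference was not tested. Control female ASC1 gave 13.12 to 41.65 CPM with a median of 28.39. The 2 control female ASC2 libraries gave 29.86 and 30.48 CPM, and the 2 castrated male ASC2 libraries gave 8.769 and 21.66 CPM, the former the lowest of the class.

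The upstream sequences of 3 genes on which the comparison turns are shown for reference: the class-defining gene, the retinoic acid-producing enzyme gene that was high with it, and the retinoic acid-binding protein gene that was low with it. They are the 250 bases before each transcription start, from RefSeq on mouse build GRCm38.p6. Tcf21 lies at chr10:22820144-22820393 on the minus strand, Aldh1a2 at chr9:71215539-71215788 on the plus strand and Crabp1 at chr9:54764498-54764747 on the plus strand. Capitals mark the T-box core AGGTGT, read on either strand.
Tcf21: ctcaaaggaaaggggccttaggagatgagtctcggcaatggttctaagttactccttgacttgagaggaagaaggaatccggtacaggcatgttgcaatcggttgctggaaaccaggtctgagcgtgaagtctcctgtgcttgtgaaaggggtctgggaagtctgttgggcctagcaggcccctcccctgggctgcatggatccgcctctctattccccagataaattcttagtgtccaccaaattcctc
Aldh1a2: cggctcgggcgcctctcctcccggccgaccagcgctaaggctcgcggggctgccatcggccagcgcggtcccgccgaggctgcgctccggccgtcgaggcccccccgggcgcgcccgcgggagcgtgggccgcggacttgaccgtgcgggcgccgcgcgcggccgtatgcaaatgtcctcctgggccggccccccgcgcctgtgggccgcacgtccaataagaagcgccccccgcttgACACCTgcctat
Crabp1: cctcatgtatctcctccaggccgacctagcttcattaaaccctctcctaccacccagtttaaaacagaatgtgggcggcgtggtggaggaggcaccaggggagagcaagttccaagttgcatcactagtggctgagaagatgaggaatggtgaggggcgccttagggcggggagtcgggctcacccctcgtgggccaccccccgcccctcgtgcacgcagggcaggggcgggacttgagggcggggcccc
The Aldh1a2 sequence held 1 T-box core, starting 12 bases before the transcription start, and the E-box CAGCTG, the form of E-box that Tcf21 is known to bind, was not in any of the 3. These letters are short, and a match is a description rather than a binding site. The T-box core was in 11.8% of all 32851 promoter sequences of this length, in 4 of the 10 genes with an entry among the 15 most increased and in 3 of the 10 with an entry among the 15 most decreased. The E-box was in 4271 of the 32851 sequences and in 2 of 10 of either set. Tbx15 and Wt1 had no entry.

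Tbx15 ran opposite to Tcf21. In Tcf21-containing libraries it ranged from 0 to 13.77 CPM with a median of 2.985 and a mean of 3.87 ± 3.65 (SD, n = 23), and in Tcf21-free libraries from 8.706 to 73.43 CPM with a median of 26.41 and a mean of 28.6 ± 12.1 (SD, n = 35). All 35 Tcf21-free libraries had Tbx15 reads, and 6 of the 23 Tcf21-containing libraries had none. The fitted class difference was -2.65 on the log2 scale (SE 0.27, adjusted p = 2.28e-12, edgeR's quasi-likelihood test with Benjamini-Hochberg adjustment over all genes). The difference was -2.28 (adjusted p = 0.000349) when the 27 libraries that go against their sex label were left out.

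**Figure D1:**
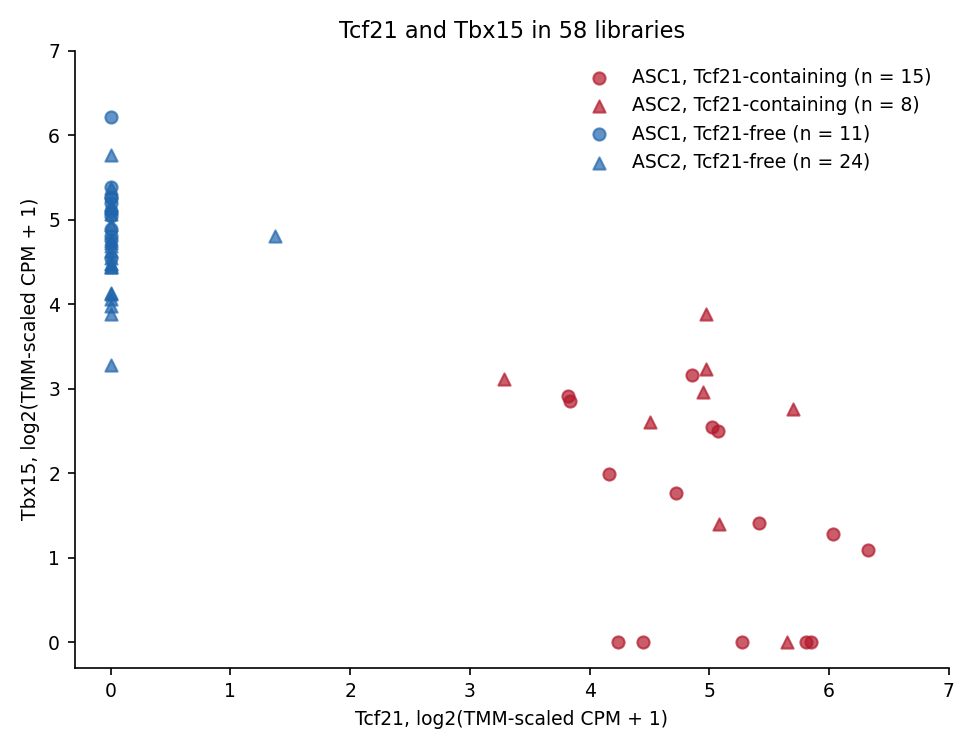
Tcf21 (x axis) and Tbx15 (y axis) in each of the 58 libraries, both as log2(TMM-scaled CPM + 1), with circles for ASC1, triangles for ASC2, red for Tcf21-containing and blue for Tcf21-free libraries. The Tcf21-containing libraries lie at 13.77 CPM of Tbx15 or less, while the Tcf21-free libraries lie at 8.706 CPM or more and, apart from 1 library, at a Tcf21 of 0.

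The Tbx15 difference had the same direction in all 6 groups that held both classes. In castrated male ASC1, Tbx15 had a median of 0.5648 CPM and a highest value of 7.986 in Tcf21-containing libraries, against 28.72 and 40.86 CPM in the 2 Tcf21-free ones. In control male ASC1 the 3 Tcf21-containing libraries had 0, 2.985 and 6.261 CPM, against 26.05 to 35.75 in the 4 Tcf21-free ones. The classes did not overlap in either group. In control female ASC2 the 2 Tcf21-containing libraries had 6.786 and 13.77 CPM, the latter in library C3 and close to the lowest Tcf21-free value of 14.81. In castrated male ASC2 the values were 5.097 and 7.673 CPM against a Tcf21-free range that began at 8.706, in library K1. C3 was the only Tcf21-containing library that reached the Tcf21-free range, and it exceeded 2 Tcf21-free values, 8.706 and 13.73 CPM. The fitted difference was -3.53 in ASC1 and -1.92 in ASC2, and these did not pass the test of a difference between populations (1.61, SE 0.52, adjusted p = 0.149).

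Over the genome the classes differed in many genes. Of 12463 genes tested besides Tcf21, 3324 passed an adjusted p of 0.05 (26.7%), 1839 of them higher in Tcf21-containing libraries (14.8%) and 1485 lower (11.9%). These shares are the background for each count of list members called below. Without adjustment, 4494 genes passed p of 0.05. The median difference over all genes tested was 0.03 on the log2 scale, so the scaling left the bulk of genes level between the classes. Of the genes called, 1011 higher and 902 lower genes had the same direction in all 6 groups that held both classes. Without the 27 libraries that go against their sex label, 1237 genes were called, 749 higher and 488 lower. Without the 9 libraries high in epithelial markers, 1570 were called, 928 higher and 642 lower. In bulk libraries of this kind, fewer cells of a type and less RNA per cell cannot be told apart.

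Besides Tcf21, 18 genes were higher in every Tcf21-containing library than in any Tcf21-free library (0.144%) and 1 gene was lower in all of them (0.00802%). The 18 were Asic3, Saa3, Wt1, Hp, H6pd, Upk1b, Sulf1, Des, Emilin1, Gdf6, Isyna1, Kif1a, Folr1, Aebp1, Epas1, App, Adam19 and Fbln2. They span an acid-sensing ion channel (Asic3), acute-phase proteins (Saa3 and Hp), matrix proteins (Emilin1 and Fbln2), an intermediate filament (Desmin, Des) and a hypoxia-inducible transcription factor (Epas1). The most abundant was Fbln2, at 3548 to 5145 CPM against 491.9 to 2958. H6pd, an endoplasmic reticulum enzyme of the pentose phosphate route, ran from 237.5 to 551.5 CPM with a median of 357.2, against 55.43 to 171.9 with a median of 98.99. The gene that was lower was Rpl39l, at 0 to 3.288 CPM against 4.461 to 28.51, a ribosomal protein gene with near-identical copies whose reads may be shared and whose level is therefore uncertain.

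Of the regulators known from visceral stroma and mesothelium, 3 of the 5 tested besides Tcf21 were higher in Tcf21-containing libraries, none was lower, and the median log2 difference was 0.86, beside 0.03 over all genes. Wt1 was read in every Tcf21-containing library, at 6.561 to 30.1 CPM with a median of 16.93, and in 1 of the 35 Tcf21-free libraries, the control female ASC2 library G3, at 1.833 CPM from 1 read. Pooled over libraries, 308 against 1 Wt1 reads gave a ratio of 421 (95% counting interval 75.0 to 16700). Gata6, an endodermal and mesodermal GATA factor, was higher by 1.26 (SE 0.30, adjusted p = 0.00094), and Nr2f1, an orphan nuclear receptor, by 0.86 (SE 0.30, adjusted p = 0.0279). Both calls were lost without the libraries that go against their sex label, at 1.03 (adjusted p = 0.15) for Gata6 and 1.09 (adjusted p = 0.27) for Nr2f1, and that of Nr2f1 also without those high in epithelial markers, at 0.57 (adjusted p = 0.36). Osr1 and Bnc1 had differences of -0.33 and -0.49 that did not pass, and Gata4, Gata5 and Foxf1 fell below the filter on low counts.

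Besides Tbx15, the list of subcutaneous and hindlimb-level regulators left only Pitx1 above the filter, at 0.69 (adjusted p = 0.372). Shox2, En1, Tbx4, Irx3 and Irx5 were not tested. Thus 1 of the 2 tested members was lower and none was higher, and Tbx15 carried the list.

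Genes known from mesothelium divided by kind. Of 9 members tested, 5 were higher in Tcf21-containing libraries and 4 were lower, with a median of 1.9. The 5 higher genes were the uroplakins Upk1b and Upk3b, the membrane protein genes Lrrn4 and Nkain4, and Msln, which encodes mesothelin. Upk3b, a defining marker of the layer, ranged from 0 to 66.57 CPM with a median of 24.09, against 0 to 3.421 with a median of 0. Upk1b ranged from 3.934 to 33.98 CPM against 0 to 3.192, and the ratio of 297 to 3 pooled reads was 135 (interval 45.9 to 660). Msln was higher by 2.15 (adjusted p = 0.000551) and Nkain4 by 1.9 (adjusted p = 0.000133). Msln lost its call without the libraries that go against their sex label, at 1.14 (adjusted p = 0.32).

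The 4 lower members of that list were the keratins of simple epithelia Krt7, Krt8, Krt18 and Krt19, at -1.85, -2.06, -1.91 and -1.51. The 9 libraries high in epithelial markers were picked on a sum that includes Krt18, so the value of Krt18 without them is a description. Without those 9 libraries Krt7 was -0.36 (adjusted p = 0.784), Krt8 -0.05 (adjusted p = 0.977) and Krt18 -0.25 (adjusted p = 0.837), while Krt19 was -1.08 (adjusted p = 0.0227). In the medians the order was the other way for Krt7, at 14.16 CPM in Tcf21-containing and 2.934 CPM in Tcf21-free libraries, whose highest value was 212.8 CPM. The summed unscaled level of the mesothelial list had a median of 136 CPM in Tcf21-containing and 78.7 CPM in Tcf21-free libraries.

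The 15 genes with the largest increase were Wt1, Rxfp2, Upk1b, Saa3, Lrrn4, Gm47416, Gdpd2, Asic3, Hp, Upk3b, Frzb, Jph2, Erv3, Aldh1a2 and Kng1, and 13 of them were higher in all 6 groups with both classes. Acute-phase and plasma protein genes stood among the most abundant. Saa3, serum amyloid A3, had 65.77 to 786.8 CPM with a median of 391.3 in Tcf21-containing libraries, against 0 to 14.82 with a median of 3.666 (log2 difference 5.40, SE 0.27, adjusted p = 3.54e-25). Hp, haptoglobin, had 53.1 to 959.7 CPM with a median of 227.6, against 0 to 27.45 with a median of 8.477 (4.84, SE 0.29, adjusted p = 5.39e-21). Asic3 had the smallest spread of the 15 relative to its level, at 106 ± 25.0 CPM (SD, n = 23) against 3.29 ± 3.03 (SD, n = 35), and a difference of 4.85 (SE 0.20, adjusted p = 1.28e-28). Its lowest Tcf21-containing library, C3, had 52.12 CPM and its highest Tcf21-free library had 10.02. Leaving out the libraries that go against their sex label gave 4.70 for Saa3 and 4.66 for Asic3.

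Several of the largest increases rested on few reads in the Tcf21-free class, where a fitted fold depends on the prior count. Lrrn4 had 150 reads against 1, a ratio of 205 (interval 36.2 to 8150), and Gdpd2 had 185 against 3, a ratio of 84.3 (28.4 to 413). The unnamed transcript Gm47416 had 144 reads against 1, a ratio of 197 (34.8 to 7830). Erv3, an endogenous retroviral gene, had 116 reads against 0 and was at least 52.9-fold higher, with a floor of 3 counts over the whole Tcf21-free class. Of its reads, 115 were in Tcf21-containing libraries that passed the limit for Xist alone.

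**Figure D2:**
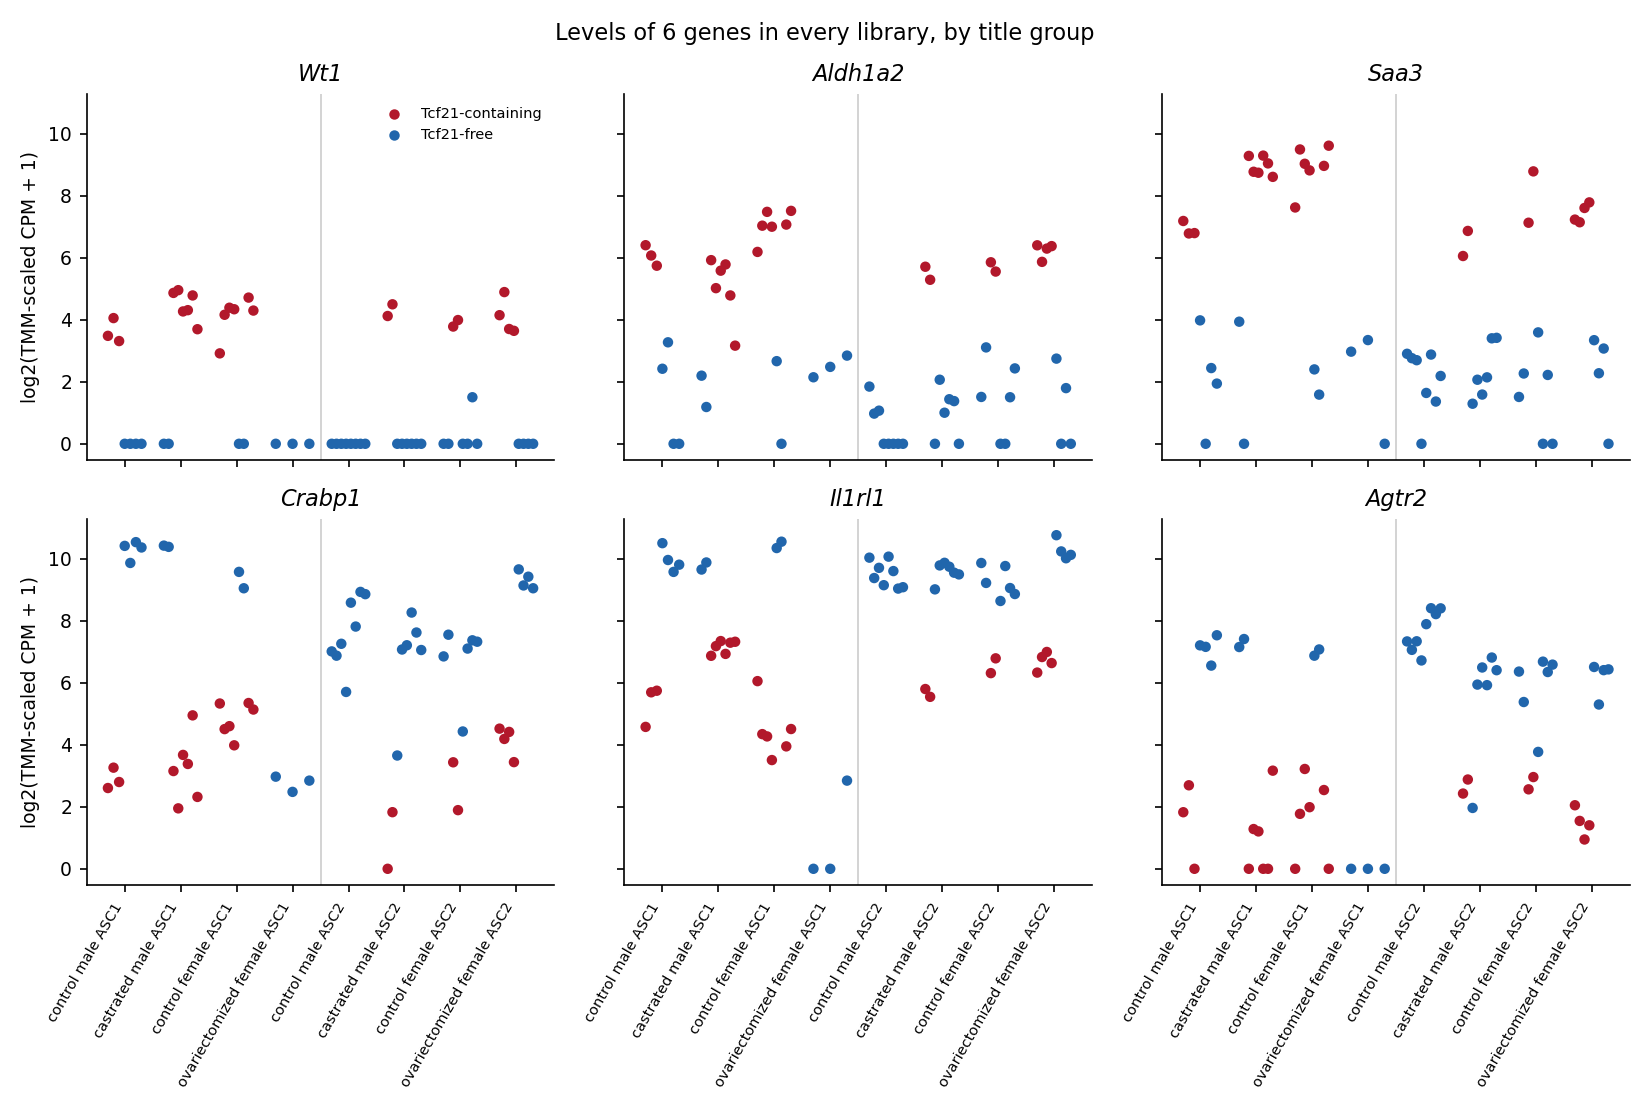
Levels of Wt1, Aldh1a2, Saa3, Crabp1, Il1rl1 and Agtr2 as log2(TMM-scaled CPM + 1) on the y axis in every library, by title group on the x axis, with ASC1 groups left and ASC2 groups right of the grey line and points coloured by Tcf21 class. In each of the 6 groups that held both classes the red points lie above the blue ones for Wt1 and Saa3, and the 3 ovariectomized female ASC1 libraries are at 0 Agtr2 and at most 6.192 CPM of Il1rl1.

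The 15 genes with the largest decrease were Nefl, Crabp1, Hsd3b6, Krt5, Mcpt8, Agtr2, Krt17, Prl2c5, Aqp8, Krt14, Cldn4, Slc14a1, Dusp9, Il1rl1 and Mab21l1, of which 13 were lower in all 6 groups. Il1rl1, the receptor of interleukin 33, was the most abundant. It had 10.39 to 162.2 CPM with a median of 78.67 in Tcf21-containing libraries, against a median of 838.9 and a highest value of 1743 in Tcf21-free libraries (-3.92, SE 0.21, adjusted p = 4.68e-24). Its classes overlapped only through the 3 ovariectomized female ASC1 libraries, since the other 32 Tcf21-free libraries began at 399.1 CPM. Agtr2, the type 2 receptor of angiotensin II, had 0 to 8.331 CPM with a median of 2.419, against a median of 95.37 and a highest value of 339.3 (-5.03, SE 0.30, adjusted p = 4.9e-21). Nefl, the light neurofilament, had a median of 0 and a highest value of 6.657 CPM, against a median of 22.38 and a highest value of 72.14 (-5.95, SE 0.32, adjusted p = 2.7e-23). Dusp9, a phosphatase of mitogen-activated kinases, Slc14a1, a urea transporter, and Aqp8, an aquaporin, had differences of -3.95, -4.13 and -4.29.

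Other members of that set belong to cell types or families that need care. Krt5, Krt14, Krt17 and Cldn4 are genes of epithelial cells, and their highest values, 111.5, 214.1, 445.4 and 308.4 CPM, were in Tcf21-free libraries, whose medians were 0, 1.598, 1.584 and 3.831 CPM. Krt14, which is itself in the epithelial sum, was at -4.16 (adjusted p = 0.00223) without the 9 libraries high in that sum. Krt5, also in the sum, fell below the filter without those libraries and was not tested. Mcpt8, a protease of basophils, had a median of 0 against 5.108 CPM. Hsd3b6, a steroid dehydrogenase, had 1 read against 304 and was lower by a ratio of 222 (interval 39.6 to 8810). Hsd3b6 and Prl2c5 belong to families of near-identical copies, so their reads may be split among copies and their values are uncertain.

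Retinoic acid is made from vitamin A in steps that these cells can express, and it acts through nuclear receptors. Of 12 genes of this pathway tested, 4 were higher in Tcf21-containing libraries, 2 were lower, and the median was 0.36. Aldh1a2, which makes retinoic acid from retinaldehyde, rose from a median of 1.277 CPM (range 0 to 8.683) to 59.87 CPM (range 7.986 to 182.3), a difference of 4.49 (SE 0.25, adjusted p = 2.67e-23). Its classes overlapped by a narrow margin, 7.986 CPM against 8.683. Dhrs3, which turns retinaldehyde back to retinol, was higher by 1.66 (adjusted p = 5.24e-14), and Aldh1a1, a related dehydrogenase, by 0.92 (adjusted p = 2.67e-06).

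The 2 lower members handle binding and uptake. Crabp1, which binds retinoic acid in the cytosol, had 0 to 39.81 CPM with a median of 9.877 in Tcf21-containing libraries, against 4.589 to 1492 with a median of 196.6 (-5.83, SE 0.31, adjusted p = 4.68e-24). The overlap again lay in ovariectomized female ASC1, at 4.589, 6.192 and 6.857 CPM, and in a few ASC2 libraries such as K1, at 11.61 CPM. Stra6, the retinol uptake receptor, was lower too (-3.57, adjusted p = 1.04e-08). Aldh1a3, Rdh10, Rbp4, Crabp2, Cyp26b1 and Rarb did not pass, with differences from -0.40 to 0.82.

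Wnt signalling restrains the formation of adipocytes and is tuned by secreted antagonists and by R-spondins that amplify it. Of 16 Wnt pathway genes tested, 7 were higher and 2 lower (56.2% called, beside 26.7% of all genes), with a median of 0.19. The antagonists Frzb and Sfrp1 were higher by 4.59 (adjusted p = 9.71e-18) and 3.04 (adjusted p = 2.86e-16). Sfrp1 had a median of 57.01 CPM against 14.16. The amplifiers Rspo1 and Rspo3 were higher by 3.23 (adjusted p = 4.25e-09) and 2.40 (adjusted p = 0.000977), the ligand Wnt4 by 2.32 (adjusted p = 0.000119), and the receptors Fzd4 and Fzd1 by 0.90 and 0.76. The antagonists Dkk2 and Dkk3 were lower, at -2.13 and -0.52. Fzd1, Fzd4, Dkk2 and Dkk3 did not pass without the libraries that go against their sex label, where Wnt4 and Rspo3 fell below the filter and were not tested. Fzd1, Fzd4 and Dkk3 did not pass without those high in epithelial markers either. The Wnt ligands Wnt2, Wnt5a, Wnt5b, Wnt10b and Wnt11 and the antagonists Sfrp2 and Sfrp4 did not pass, with differences from -0.61 to 0.47.

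Rspo1, Wnt4 and Fzd1 are also among the genes that the study names in comparing perigonadal with inguinal stroma, in other samples than these. The study gives Rspo1 as enriched in perigonadal samples of males and females, but Wnt4 in female perigonadal samples. It describes Fzd1 as expressed in perigonadal samples, above all in female ASC1. All 3 were higher in Tcf21-containing libraries. Rspo1 had 3.144 to 26.24 CPM with a median of 10.96, against 0 to 17.84 with a median of 0.7064. Wnt4 had a median of 2.715 against 0 CPM. Fzd1 had 19.68 to 101.6 CPM with a median of 55.9, against 8.482 to 105.6 with a median of 29.64, so its classes overlapped widely.

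Homeobox genes of the Hox clusters record position along the body axis, with low numbers read in anterior and high numbers in posterior tissue. Of 17 Hox genes tested, 5 were higher, 1 was lower and 11 did not pass, so that 35.3% were called beside 26.7% of all genes, with a median of 0.45. The single lower gene was Hoxc10, at 1.666 to 56.59 CPM with a median of 23.72 in Tcf21-containing libraries, against 29.7 to 85.36 with a median of 53.85 (-1.44, SE 0.20, adjusted p = 3.16e-08). Hoxa3 was higher by 1.65 (adjusted p = 0.00297), Hoxa7 by 1.25 (adjusted p = 0.000112) and Hoxd8 by 1.40 (adjusted p = 0.0116), of which Hoxa3 and Hoxd8 did not pass without the libraries that go against their sex label. Without those high in epithelial markers Hoxa3 fell below the filter and was not tested. Hoxd10 was higher by 2.94 (adjusted p = 7.9e-06). Hoxd11 had 95 reads against 0, at least 43.3-fold higher with a floor of 3 counts over the Tcf21-free class.

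The Tcf21-containing libraries were not alike in the posterior Hox genes. Hoxd11 had reads in all 6 castrated male ASC1, both control female ASC2 and all 4 ovariectomized female ASC2 libraries of that class, at 1.967 to 19.46 CPM. It had none in the 2 castrated male ASC2, 6 control female ASC1 and 3 control male ASC1 libraries. Rxfp2, the receptor of insulin-like peptide 3, followed the same groups, at 19.96 to 58.76 CPM in castrated male ASC1, 56.05 and 63.79 in control female ASC2 and 37.86 to 58.68 in ovariectomized female ASC2. It had 0 CPM in all 3 control male ASC1 libraries, 0 and 2.192 in castrated male ASC2, and a median of 0 in control female ASC1 with a highest value of 19.68, in library A4. Rxfp2 was therefore higher in 5 of the 6 groups with both classes by their means, and level at 0 in control male ASC1. Frzb behaved alike, at 207.6 to 353.1 CPM in those 3 groups and 12.73 to 28.5 in the 2 castrated male ASC2 and 3 control male ASC1 libraries, with 16.93 to 150.9 in control female ASC1.

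These groups also differed in their sex-chromosome transcripts, which do not follow the labelled sex. The limits were 15 CPM for Xist and 10 CPM for the Y-linked sum. Of the 23 Tcf21-containing libraries, 13 passed the limit for Xist alone and 10 passed that for the Y-linked genes alone. The 13 had 19.68 to 63.79 CPM of Rxfp2 and the 10 had 0 to 2.968 CPM. Frzb was at 150.9 to 353.1 CPM in the 13 and 12.73 to 62.32 in the 10, and Hoxc10 at 18.11 to 56.59 and 1.666 to 11.94. None of these ranges overlapped. Of the 6 Tcf21-containing control female ASC1 libraries only A4 passed the limit for Xist, at 17.8 CPM unscaled. Library A4 lay with the 13 in all 3 genes, on 3 reads of Rxfp2, 4 of Hoxc10 and 23 of Frzb. All 10 libraries with Y-linked transcripts lay below the lowest Tcf21-free value of Hoxc10, 29.7 CPM. Reads of Erv3 numbered 115 in the 13 and 1 in the 10, and those of Hoxd10 90 and 2. By contrast Wt1 had medians of 16.77 and 17.81 CPM in the 13 and the 10, and Saa3 391.3 and 298.9. These values are a description, since the sex-chromosome transcripts were themselves read from the libraries, and no test was run on them. With the levels of Xist and of the Y-linked genes as added terms in the fit, Rxfp2 differed between the Tcf21 classes by 5.90 and Frzb by 4.90. Without the libraries that go against their sex label the Rxfp2 difference was 4.59, against 5.85 with all libraries.

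Matrix and general fibroblast genes were mostly higher with Tcf21. Of 6 depot-related matrix genes tested, 5 were higher and none lower, with a median of 0.80. Apart from Frzb these were the basement membrane collagens Col4a1 (0.66) and Col4a2 (0.78), Col15a1 (0.83) and Col11a1 (1.32), while Col12a1 had 0.45 (adjusted p = 0.133). Col11a1 did not pass without the libraries that go against their sex label or without those high in epithelial markers. Of 6 general fibroblast markers, Pdgfra, Col1a1, Fn1 and Col3a1 were higher by 0.57, 0.70, 0.61 and 0.50, Lum was lower at -0.35 and Dcn did not pass at 0.16. Without the libraries high in epithelial markers neither Col3a1, at 0.25 (adjusted p = 0.396), nor Lum, at -0.32 (adjusted p = 0.275), passed, and Lum did not pass without those that go against their sex label. The summed unscaled fibroblast level had a median of 16919 CPM in Tcf21-containing and 14284 CPM in Tcf21-free libraries, and all 58 libraries had at least 8728 CPM.

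Markers of both sorted populations were examined. Of 8 genes known from ASC1, 4 were higher, 1 was lower and the median was 0.68. F3, the tissue factor that marks regulatory stromal cells, was higher by 1.67 (adjusted p = 1.41e-13), Icam1, an adhesion molecule of committed preadipocytes, by 1.16 (adjusted p = 2.48e-10) and Fabp4, a fatty acid-binding protein, by 0.63 (adjusted p = 0.0284). Pparg, the regulator of adipocyte formation, was lower (-1.02, adjusted p = 0.00516), with a fitted difference of -0.18 in ASC1 and -2.02 in ASC2. Of 6 genes known from ASC2, Sema3c was lower (-0.72, adjusted p = 0.0398) and 5 did not pass, with a median of -0.03. Without the libraries that go against their sex label, Fabp4 was at 0.38 (adjusted p = 0.513) and Pparg at -1.27 (adjusted p = 0.0514), and without those high in epithelial markers Fabp4 was at 0.11 (adjusted p = 0.863) and Sema3c at -0.65 (adjusted p = 0.268).

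**Figure D3:**
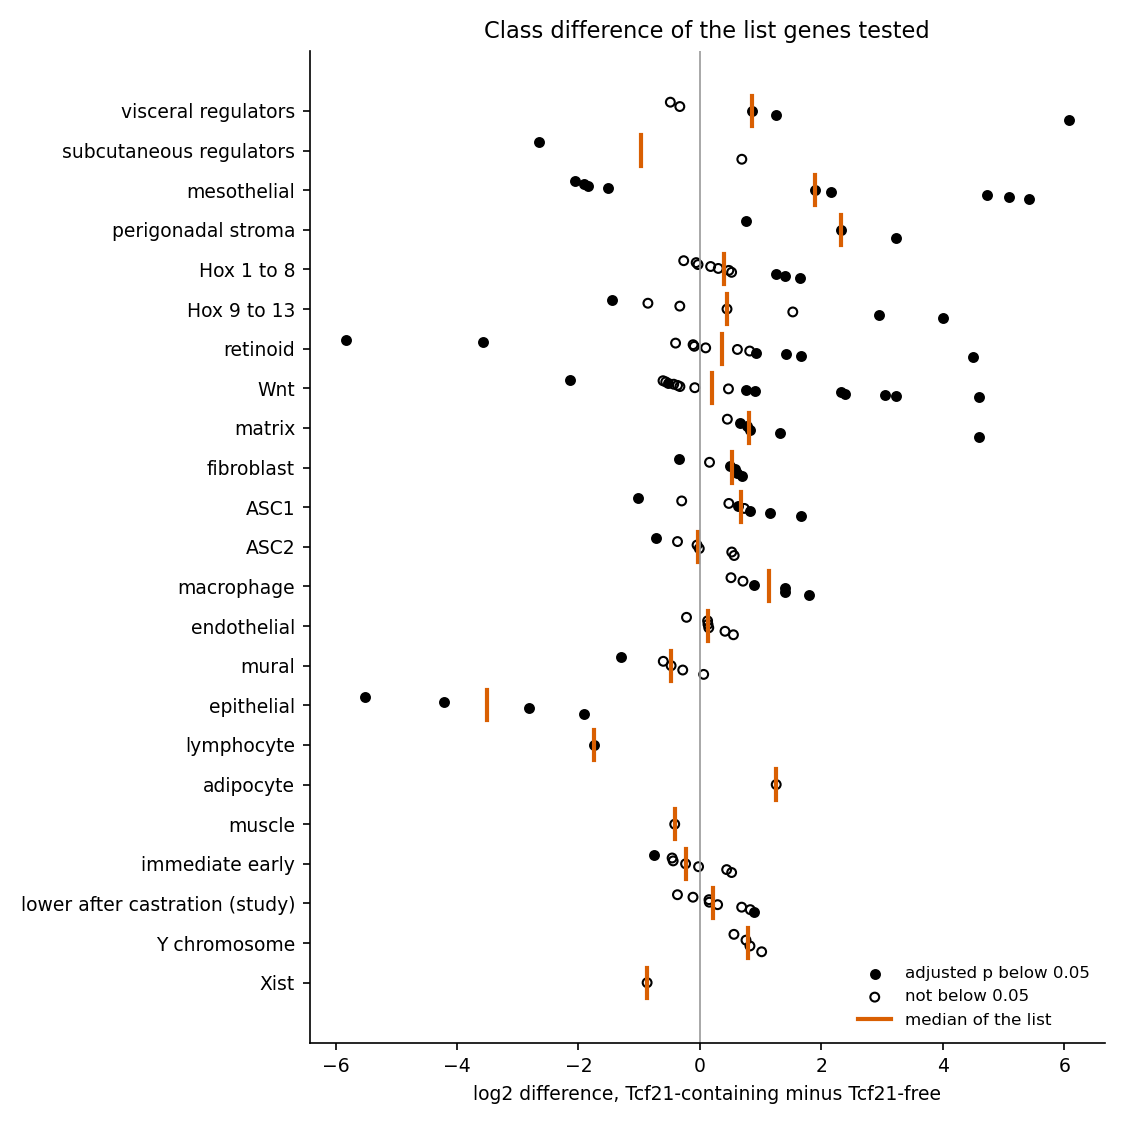
Fitted log2 difference, Tcf21-containing minus Tcf21-free (x axis), of every tested gene in each gene list (y axis), with filled points below an adjusted p of 0.05, open points not below it, and a bar at the median of the list. The mesothelial, retinoid and Wnt lists spread to both sides of 0, with medians of 1.9, 0.36 and 0.19, while all 4 epithelial genes lie below 0.

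Markers of other cell types were read beside these results. Macrophage genes were higher in Tcf21-containing libraries for 4 of 6 tested, among them Cd68 (1.40), Adgre1 (1.40) and Csf1r (0.89), with a median of 1.14, although the sort removes CD45+ cells. Csf1r did not pass without the libraries that go against their sex label, at 0.65 (adjusted p = 0.071). The summed unscaled macrophage level ran from 103 to 807 CPM with a median of 205 in Tcf21-containing libraries. In Tcf21-free libraries it ran from 21.2 to 497 with a median of 132. The medians were 294 against 90.0 CPM within ASC1, but 169 against 178 CPM within ASC2. Ptprc, the gene of CD45 itself, did not pass at 0.71 (adjusted p = 0.11), and Cd163 fell below the filter. The part of macrophage reads in the other differences was not tested.

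No endothelial gene of 6 tested passed, with a median of 0.14. Of 5 mural genes only Cspg4, a pericyte proteoglycan, passed and was lower, at -1.30, and it did not pass without the libraries high in epithelial markers, at -0.84 (adjusted p = 0.201). The 4 epithelial genes tested were all lower, with a median of -3.51. Without the libraries high in epithelial markers Krt5 and Cdh1 fell below the filter and Krt18 did not pass. The summed unscaled epithelial level had medians of 17.4 and 18.7 CPM in Tcf21-containing and Tcf21-free libraries but highest values of 143 and 639. Cd79a, a B-cell gene, was lower, at -1.74. It did not pass without the libraries that go against their sex label, at -1.91 (adjusted p = 0.0666), or without those high in epithelial markers, at -1.44 (adjusted p = 0.0612). The only adipocyte gene tested, Adipoq, and the only muscle gene tested, Acta1, did not pass, and all 3 Schwann cell genes fell below the filter. Of 7 immediate early genes, which respond to tissue dissociation, Jun was lower, at -0.75, and 6 did not pass, with a median of -0.24. Thus 14.3% were called, beside 26.7% of all genes. Jun did not pass without the libraries that go against their sex label, at -0.82 (adjusted p = 0.0834). The unscaled sum of the 7 had a median of 277 CPM in Tcf21-containing and 785 CPM in Tcf21-free libraries, which hold ASC1 and ASC2 in unlike shares. The medians were 193 and 289 CPM within ASC1, and 514 and 934 CPM within ASC2. The part of this sum in the other differences was not tested.

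Genes tied to sex and hormone status were also read. Of 8 genes that the study names as lower after castration, on these samples, only Ace, the angiotensin-converting enzyme, passed (12.5%, beside 26.7% of all genes). Ace was higher by 0.89 (adjusted p = 0.00354), and it did not pass without the libraries high in epithelial markers, at 0.73 (adjusted p = 0.0763). Over both populations none of the 4 Y-linked genes passed and neither did Xist, at -0.87 (adjusted p = 0.113). Within the populations the differences had opposite signs. Xist was at -2.72 in ASC1 and 0.54 in ASC2, Ddx3y at 3.38 and -0.83, and Eif2s3y at 3.6 and -1.07, and all 3 passed the test of a difference between populations.

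**Figure D4:**
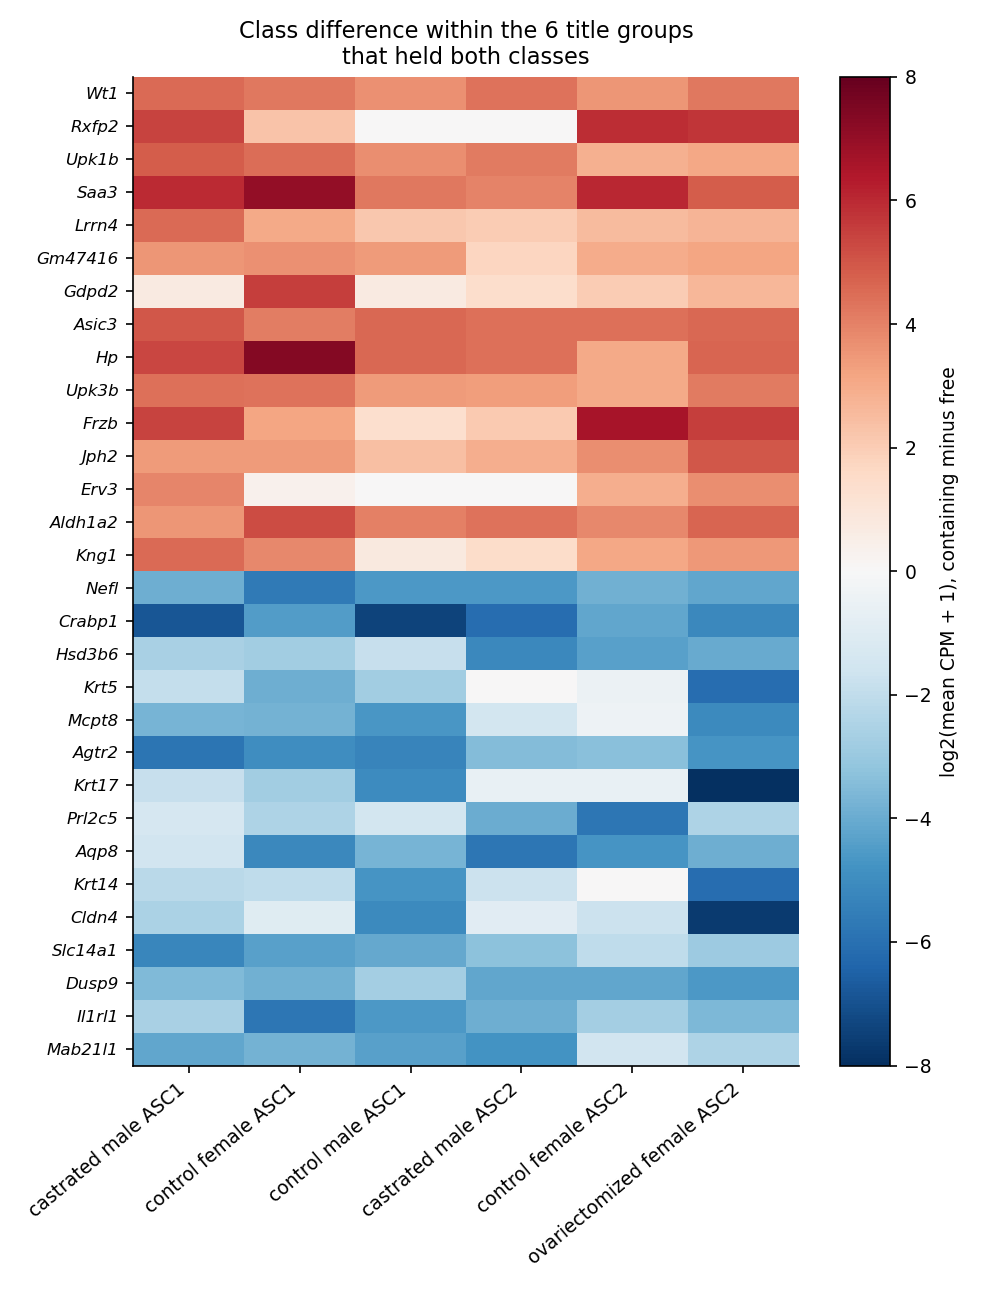
Class difference of the 15 most increased and 15 most decreased genes (y axis) within each of the 6 title groups that held both classes (x axis), as the log2 ratio of the class means of TMM-scaled CPM, each with 1 CPM added, in colour from -8 to 8. Most rows keep their colour across all 6 groups, and the keratins are lowest in ovariectomized female ASC2. Rxfp2 is at 0 in control male ASC1 and small in castrated male ASC2. Erv3 is near 0 in control male ASC1, castrated male ASC2 and control female ASC1.

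Wt1, the gene with the largest increase, differed in each of the 6 groups. The log2 ratio of class means, with 1 CPM added, for Wt1 was 4.55 in castrated male ASC1, 4.23 in control female ASC1, 3.66 in control male ASC1, 4.33 in castrated male ASC2, 3.51 in control female ASC2 and 4.19 in ovariectomized female ASC2. These groups include control and operated mice of either labelled sex. Control libraries alone gave 1704 calls and castrated and ovariectomized libraries alone gave 1724, each from fewer libraries than the full set.

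The class difference itself depended on the sorted population for 69 genes (0.554%), of which 43 had a larger value in ASC2 and 26 a smaller one. The sign was the same in ASC1 and ASC2 for 28 of them and opposite for 41. Without adjustment, 1410 genes passed p of 0.05 in this test. Dpp4, the surface enzyme on which the populations were sorted, was higher with Tcf21 in ASC1 by 2.47 and nearly level in ASC2 at -0.09 (difference -2.56, adjusted p = 0.0016). In unscaled CPM, Tcf21-containing ASC1 libraries had a median Dpp4 of 35.8 against 6.63 in Tcf21-free ones, while ASC2 libraries had medians of 102 and 177. Dkk2 differed by -3.65 in ASC1 and -0.78 in ASC2 (difference 2.87, adjusted p = 0.0057).

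Among genes chosen after their values were seen, Gap43, a growth cone protein gene, differed by -5.73 in ASC1 and -1.51 in ASC2 (difference 4.22, SE 0.50, adjusted p = 8.05e-08). Thy1, a surface glycoprotein of fibroblasts, differed by -2.05 and -0.63 (adjusted p = 7.88e-05), H19, an imprinted noncoding RNA, by -3.44 and -0.86 (adjusted p = 0.00228), and Gsta3, a glutathione transferase, by 4.12 and 0.61 (adjusted p = 0.0053). Gsta3 belongs to a family of similar genes, and its reads may be shared.

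**Figure D5:**
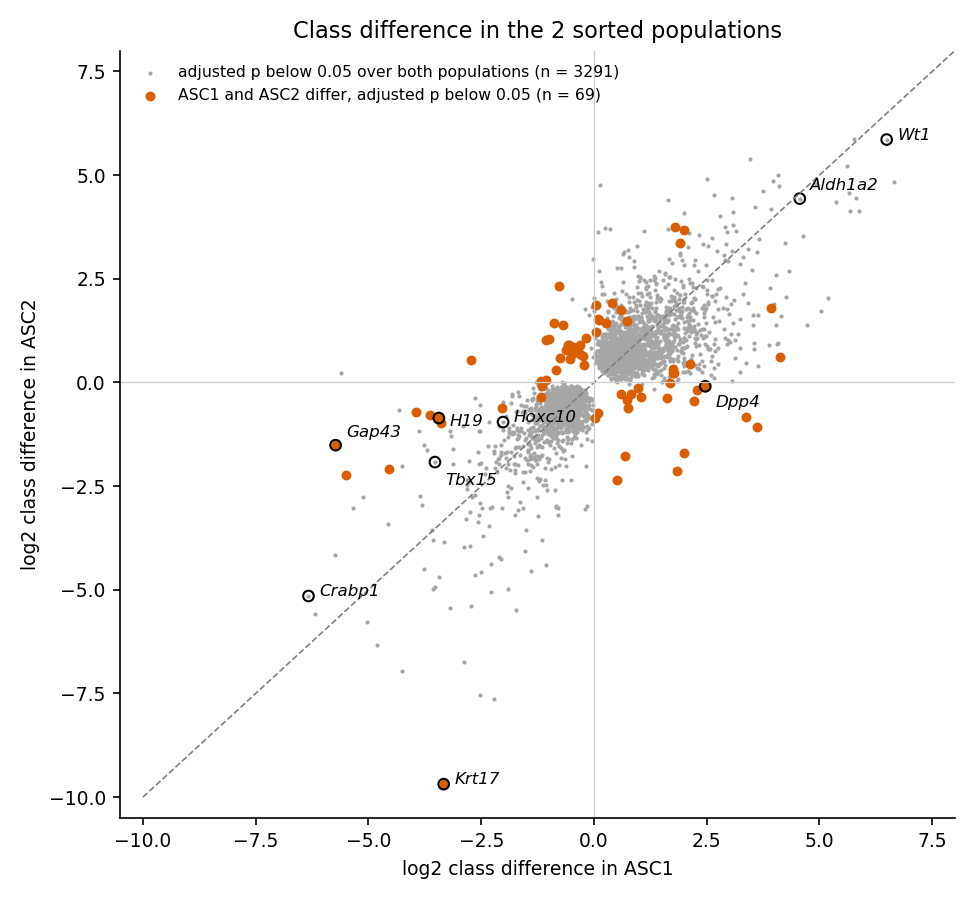
Fitted log2 class difference in ASC1 (x axis) and ASC2 (y axis) for 3291 genes called over both populations and not among the 69 (grey), and for the 69 genes whose difference depended on the population (orange), with the diagonal of equal difference dashed. Wt1, Aldh1a2 and Crabp1 lie near the diagonal, while Gap43 lies at -5.73 in ASC1 and -1.51 in ASC2.

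A few libraries lay between the classes in single genes. Library C3 of control female ASC2, Tcf21-containing at 30.48 CPM, had the highest Tbx15 of its class, 13.77 CPM, the lowest Asic3, 52.12 CPM, and 48.19 CPM of Hoxc10, with 12.78 CPM of Wt1. Library I1 of castrated male ASC2, with the lowest Tcf21 of its class, 8.769 CPM, was typical in Wt1 at 16.44 CPM and in Asic3 at 126.1 CPM. Library K1 of castrated male ASC2, Tcf21-free, had the lowest Tbx15 of its class, 8.706 CPM, with 11.61 CPM of Crabp1 and 2.902 CPM of Agtr2, but 518 CPM of Il1rl1 and no read of Wt1 or Asic3. Library E3 of control female ASC2, with the single Tcf21 read of the Tcf21-free class, had 26.93 CPM of Tbx15 and none of Wt1 or Asic3.

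The 3 ovariectomized female ASC1 libraries differed from the other Tcf21-free libraries in many of the genes named here. They had no read of Tcf21, Wt1 or Asic3, and Tbx15 at 37.15, 37.72 and 73.43 CPM, against 8.706 to 53.54 in the other 32 Tcf21-free libraries. Agtr2, Dusp9, Nefl, Slc14a1 and Aqp8 were at 0 in all 3, while each of the other 32 libraries had reads of all 5. Crabp1 was at most 6.857 CPM in the 3, against 11.61 to 1492 in the others. Hoxc10, at 30.96 to 66.29 CPM, and Mab21l1, at 0 to 44.57 CPM, lay within the range of the others, and Aldh1a2, at 3.429 to 6.192 CPM, lay above the others' median of 1.051. The fibroblast genes measured were higher in the 3. Col1a1 was at 8567 to 16850 CPM against 497.1 to 3142, Col3a1 at 29050 to 43550 against 1834 to 11020 and Dcn at 21690 to 27560 against 1435 to 9180. The 3 libraries also had a summed immediate early gene level of 2301 to 2960 CPM against a median of 682 in the others, 9122 to 11634 genes detected against a median of 13464, and 1.55% to 3.42% of counts from mitochondrial genes against at most 1.29%. The part of these in the differences was not tested. As a group with 1 class and a term of its own, these libraries did not set any fitted class difference, though they entered the estimate of spread. They are part of the Tcf21-free means, medians, ranges and pooled reads, and of the counts of genes without overlap. The fit on the 6 groups with both classes gave 3615 calls and a Tbx15 difference of -2.65.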

How the data were processed

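RNA from sorted ASC1 and ASC2 cells was made into 58 Smart-seq3 libraries. The authors trimmed reads with NGmerge, quantified them with Salmon 1.9.0 against Gencode vM32 transcripts (GRCm39), summed reads with and without molecular identifiers and removed libraries with few detected genes. The deposited values are estimated counts per gene, 15.0% of the nonzero ones not whole, and were rounded here. Without molecule counting, intervals and limits cover counting error only.

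Genes that reached 5 reads in over 3 libraries entered the test, in edgeR 4.0.16 (TMM scaling, quasi-likelihood fit, R 4.3.3), with 1 term for each of 8 title groups and 1 for the Tcf21 class, and genes below a Benjamini-Hochberg adjusted p of 0.05 were called. The ASC1 and ASC2 differences came from a fit with a class term in each population. The fit recovered known changes in simulated counts. Replicates are libraries with the same title group, and nothing in the labels says that they came from separate mice, so p-values measure the spread between these libraries. No pair of libraries of the same title group was a copy of the other, and pairs across title groups were not compared.

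Genes named are Tcf21, Tbx15, the 180 members of 24 gene lists and the 15 called genes with the largest fitted difference in each direction, among those with a class mean of 5 CPM or more whose class means were ordered alike in both populations. Some list members entered the counts but are not reported singly here. Genes without overlap and others outside this rule were named after their values were seen. The classes and lists were chosen with earlier results of these data known. Alternatives were another scaling (RLE), DESeq2 1.42.0, other count filters and class limits, subsets and single libraries left out, and added terms. Upstream sequences came from a RefSeq table of another build than the counts and were matched by symbol.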

Additional observations from a re-analysis of the deposited data

Results flagged for a closer look

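Single libraries were checked against the others of the same title group and class for 7 genes (Tbx15, Wt1, Asic3, Aldh1a2, Crabp1, Il1rl1 and Hoxc10), by Dixon's ratio of the gap to the range. This was done in 52 sets of 4 to 8 libraries, and 9 values stood apart. The limits used give about 1 in 20 by chance only for normally distributed values. CPM from few reads, with many at 0, are not so distributed. That rate therefore does not apply here, and the 9 are a description. The Tcf21-free control female ASC2 library G3 had 1.83 CPM of Wt1, from 1 read, where the others had 0. Tbx15 stood at 7.99 CPM in the Tcf21-containing castrated male ASC1 library P2, with the next at 1.43, and at 53.5 CPM in the Tcf21-free control male ASC2 library D1, with the next at 24.7. Aldh1a2 stood at 2.6 CPM in the Tcf21-free control male ASC2 library A1, with the next at 1.1. Crabp1 was at 30.0 CPM and Hoxc10 at 56.6 CPM in the Tcf21-containing castrated male ASC1 library O2, with the next at 11.8 and 32.7. Library A4 of Tcf21-containing control female ASC1 had 65.6 CPM of Il1rl1, with the next at 21.8, and 26.2 CPM of Hoxc10, with the next at 9.65. That library had 139825 counts, the fewest of its class. Hoxc10 was at 85.4 CPM in the Tcf21-free castrated male ASC2 library M1, with the next at 54.3.

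The class difference itself differed between the sorted populations for 6 of the named genes, by edgeR's test of the ASC2 minus ASC1 difference. It was -2.56 for Dpp4 (2.47 in ASC1 and -0.0927 in ASC2), 2.87 for Dkk2 (-3.65 and -0.776) and -6.36 for the epithelial gene Krt17 (-3.33 and -9.69). The other 3 genes are read from the sex chromosomes. The difference was -4.68 for Eif2s3y (3.6 and -1.07), -4.22 for Ddx3y (3.38 and -0.835) and 3.26 for Xist (-2.72 and 0.542). Within control female ASC1, 5 of the 6 Tcf21-containing libraries passed the limit for Y-linked genes alone, and both Tcf21-free libraries passed that for Xist alone. Those 5 still had 2.38 to 7.16 CPM of Xist, unscaled. Within control male ASC1 the 3 Tcf21-containing libraries passed the limit for Y-linked genes alone. Of the 4 Tcf21-free libraries there, 2 passed the limit for Xist alone and 2 passed both. The part of the libraries that go against their sex label in these 3 values was not tested.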

How the results depend on the processing

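The count of genes called was 3324 and moved by more than 1.5 times with fewer libraries, to 1680 with ASC2 libraries only, 1704 with control libraries only, 1724 with castrated and ovariectomized libraries only, 1237 without the libraries that go against their sex label and 1570 without those high in epithelial markers. The last 2 subsets were added after the data were seen, and each leaves fewer title groups that hold both classes. At the other settings it lay between 2263 and 4071, and with each library left out between 2944 and 3461. The count of genes that differed between ASC1 and ASC2 was 69, and it was 166 with DESeq2 and 137 with classes set at 10 CPM. Tbx15 stayed lower and past the threshold at every setting, from -3.54 with ASC1 only to -1.95 with ASC2 only, and from -2.90 to -2.54 with each library left out. With log2 Tcf21 CPM in place of classes it was -0.56 for each unit.

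A replicate block by title letter gave 2263 calls and a Tbx15 difference of -3.03, and 15 of 93 other named genes called lost their call. Over 26 letters, the correlation of the ASC1 and ASC2 libraries' deviations from their group means ran from -0.17 to 0.268 and exceeded 0.1 in 5. The median was 0.103 over the 10 letters whose libraries were of the same Tcf21 class, which include all 5, and 0.00312 over the 16 whose libraries differed in class. Deviations from group means still hold the Tcf21 class difference, so these correlations cannot decide whether the letters pair libraries. The labels do not say what the letters stand for, and the main fit has no term for them.

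Of those 93 genes, 36 lost their call at 1 or more settings and 5 (Lum, Sema3c, Nr2f1, Fabp4 and Col11a1) with some library left out. The direction turned for 4, none of them past the threshold after turning: without title group terms for Fzd4 (-0.011) and Col3a1 (-0.36), and with ASC2 only for Dkk3 (0.039) and Fabp4 (-0.15). The cause was not tested. With 2 to 70 Tcf21 reads in a Tcf21-containing library, depth limits the classes themselves, since a count of 0 allowed more than 5 CPM in 15 libraries.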
